A study of Homo sapiens with 7 samples.

Results

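The unfolded protein response and protein folding in the endoplasmic reticulum (ER) were examined in RNA sequencing libraries of cells given PTH (parathyroid hormone) and cells given PBS. The list holds 40 genes grouped by function. Of these, 39 were found by exact symbol among the 21780 symbols of the deposited tables, and 38 reached an average of 1 FPKM (fragments scaled to transcript length and library size) across the 7 libraries and were tested. Selenos was not found under that symbol, and Derl3, a paralogue of the other derlins, was listed at 0 FPKM in every library. The study concerns PTH receptor signalling in liver fibrosis, by its title. The PTH group comprised 4 libraries and the PBS group 3, all labelled as LX2, an established human line of hepatic stellate cells kept as a culture model of the fibrogenic cells of the liver. The labels give neither dose nor exposure time and do not say whether separate cultures were used, so p-values reflect only how far these libraries differ, possibly for technical reasons. Every row of the tables carries a rat Ensembl identifier although the samples are labelled human, so genes are given by their rat symbols and the species of the RNA cannot be told from the labels, whose design note speaks of mice.

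Proteins that enter the secretory pathway are threaded into the ER through the Sec61 channel, folded by chaperones, joined by disulfide bonds and, when they fail to fold, sent back to the cytosol for degradation. When unfolded proteins pile up, the sensors IRE1 (Ern1), PERK (Eif2ak3) and ATF6 raise the capacity for folding and degradation. IRE1 cuts the Xbp1 mRNA so that it encodes an active transcription factor, PERK slows translation, and ATF6 is released by proteolysis to act in the nucleus. Activated stellate cells secrete collagen and other matrix proteins, so this machinery carries a large load in them.

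The promoters of several of these genes hold short elements through which ATF6 and XBP1 are known to act in human cells, and these are shown first because only some members hold one. The patterns were searched on both strands in the RefSeq promoter windows of the human counterparts (GRCh38.p14, 250 bases before to 50 after each start). The ER stress element is CCAAT, 9 bases of any kind, then CCACG. The ER stress element II is ATTGG, 1 base of any kind, then CCACG. The unfolded protein response element was searched as TGACGTGG. A window was at hand for 36 of the 39 genes found. The ER stress element was present in 8 of these 36 genes (22.2%), against 25 of all 27305 genes with a window (0.0916%). The ER stress element II was present in 3 of 36 (8.33%), against 0.0696% of all genes, and the unfolded protein response element in 3 of 36 (8.33%), against 0.927% of all genes. The shorter CCACG alone was present in 26 of 36 members (72.2%) and in 42.1% of all genes. A match describes the letters of the window and not the binding of a factor. The members were listed for the response that these elements serve, so their higher shares are a description and no result of these libraries.

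The windows of XBP1 (chr22:28800520-28800819, minus strand) and HYOU1 (chr11:119057156-119057455, minus strand) are printed whole because their transcripts rose with PTH and carry different elements. Capitals mark the ER stress element in XBP1. In HYOU1 they mark both copies of the ER stress element II, the distal one joined to an overlapping unfolded protein response element.
XBP1: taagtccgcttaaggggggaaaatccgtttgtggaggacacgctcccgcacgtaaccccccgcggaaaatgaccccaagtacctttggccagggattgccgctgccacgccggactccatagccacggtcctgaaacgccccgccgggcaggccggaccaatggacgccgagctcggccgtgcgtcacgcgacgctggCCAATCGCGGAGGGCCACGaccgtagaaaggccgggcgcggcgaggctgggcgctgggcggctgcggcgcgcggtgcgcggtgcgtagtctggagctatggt
HYOU1: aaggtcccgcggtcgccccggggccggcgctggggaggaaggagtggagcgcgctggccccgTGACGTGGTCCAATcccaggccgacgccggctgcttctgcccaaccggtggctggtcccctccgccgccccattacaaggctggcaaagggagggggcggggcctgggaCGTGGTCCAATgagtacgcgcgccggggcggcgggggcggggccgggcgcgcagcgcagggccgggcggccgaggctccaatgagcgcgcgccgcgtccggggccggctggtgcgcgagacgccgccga

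The elements of the main chaperones and of Canx, Sdf2l1 and Herpud1 are given with 8 flanking bases on each side, to set the letters side by side in genes of which only Canx passed the test (the distal of 2 copies for HSP90B1). Capitals mark the element, on the strand of the gene, so that an element on the other strand reads in reverse complement.
HSPA5 (chr9:125241391-125241409, minus strand): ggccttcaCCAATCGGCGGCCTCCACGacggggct
HSP90B1 (chr12:103930216-103930234, plus strand): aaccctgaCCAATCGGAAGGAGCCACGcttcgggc
CALR (chr19:12938384-12938402, plus strand): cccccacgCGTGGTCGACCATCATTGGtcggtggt
CANX (chr5:179698778-179698796, plus strand): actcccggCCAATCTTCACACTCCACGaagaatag
SDF2L1 (chr22:21642114-21642124, plus strand): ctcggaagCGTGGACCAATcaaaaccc
HERPUD1 (chr16:56932025-56932035, plus strand): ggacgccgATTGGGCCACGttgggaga

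Of the 11 members with either form of the ER stress element, 2 rose (Xbp1 and Hyou1), 1 fell (Canx) and 8 did not pass, with log2 fold changes between -0.48 and 0.65 and a median of 0.04. The 25 members with a window and neither form had a median of -0.06, a range of -0.71 to 0.67, 1 rise (Creb3l1) and 24 genes that did not pass. By the same criterion 3.45% of all 10662 tested genes rose and 7.96% fell. The genes with an element thus lay on both sides of 0, and no test was made between these groups.

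**Figure D1:**
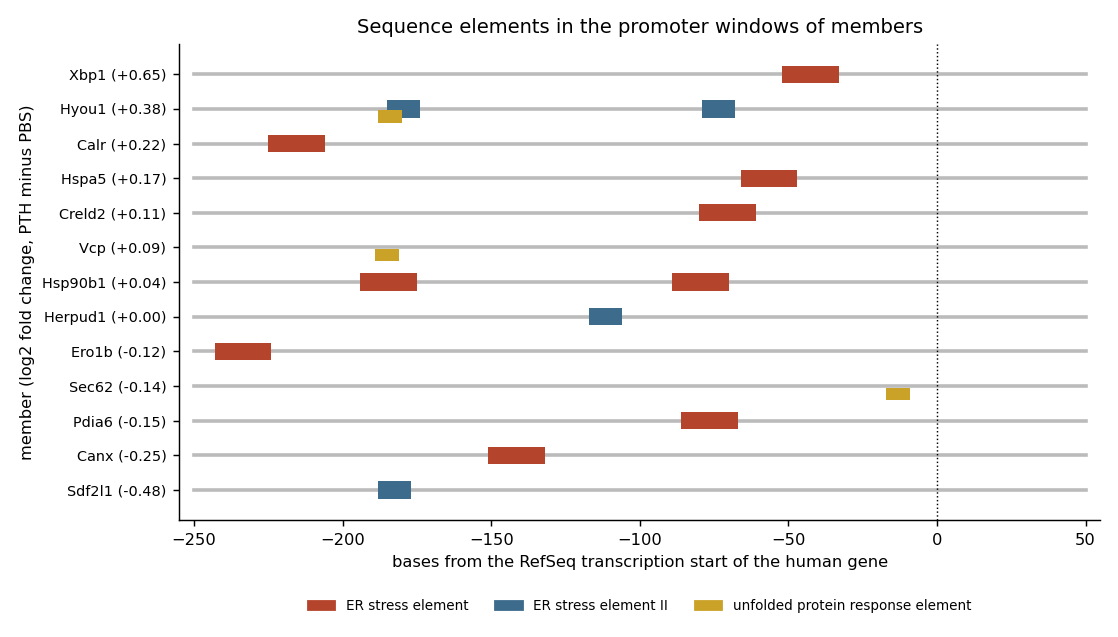
Position of each element, in bases from the RefSeq transcription start of the human gene, for the 13 members that hold one, ordered by the log2 fold change in brackets. The element-bearing genes run from Xbp1 at 0.65 to Sdf2l1 at -0.48, and the unfolded protein response element of Hyou1 overlaps its distal ER stress element II.

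The share of ER genes that moved with PTH was close to that of all genes. Of the 38 tested members, 3 rose with PTH (Xbp1, Creb3l1 and Hyou1) and 1 fell (Canx). That is 10.5% of the members, against 11.4% of all 10662 genes called by limma at a Benjamini-Hochberg adjusted p under 0.05 (3.45% higher and 7.96% lower). The median log2 fold change, on the scale of log2(FPKM + 1), was -0.04 for the members and -0.04 for all tested genes. At an unadjusted p under 0.05 there were 15 members, 7 higher and 8 lower, where 33.9% of all genes were under that value (12.2% higher and 21.7% lower). In 13 members (34.2%) the PTH and PBS values did not overlap, 5 with every PTH library above every PBS library and 8 with every PTH library below. Over all genes the groups did not overlap in 33.4%, 12.7% above and 20.8% below. By the FDR of the authors' deposited table, under 0.05, Xbp1, Creb3l1, Creb3l2 and Hyou1 were higher, where 7.87% of all tested genes were. Derl2, Sdf2l1 and Sec61b were lower in the authors' deposited table, where 15.4% of all tested genes were.

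These calls depended on which libraries were in the fit. They also depended on the filter: with genes of low values kept in, Xbp1 was the 1 member that passed. All 4 members kept the call without PTH library 1 or PTH library 2, and Xbp1 alone kept it without PBS library 3. No member passed without PBS library 1, PBS library 2, PTH library 3 or PTH library 4, although 8, 12, 8 and 15 members then had an unadjusted limma p under 0.05.

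Summed FPKM ranged from 472621 to 509859 in the PTH libraries and from 519845 to 532909 in the PBS libraries, and mitochondrially encoded mRNAs took 0.867 to 3.61% of it with PTH and 5.78 to 5.90% with PBS. In a principal component analysis of the tested genes, PTH library 2 lay nearest the PBS libraries and PTH library 1 farthest from them on the first component. With the mitochondrial share as a covariate in limma 0 members passed, 1 had an unadjusted p under 0.05, and its part in the results below was not tested further. Of 10 stellate and fibroblast markers 6 reached a mean of 1 FPKM, led by Vim, while Lrat and Reln, which mark vitamin A-storing stellate cells, were listed at 0 throughout. The summed level of that list was 1350 to 1830 FPKM with PTH and 1070 to 1150 FPKM with PBS. Of 9 hepatocyte markers 7 were at 0 in all libraries, and of 9 leukocyte markers 6 were, Ptprc among them. Cd14 was the highest leukocyte marker, at a mean of 15.9 FPKM. That list summed to 13.1 to 18.7 FPKM with PTH and 14.7 to 20.9 FPKM with PBS. Of 7 endothelial markers found 3 were at 0, and Egfl7 was the highest at a mean of 3.41 FPKM. The cholangiocyte list, mostly Spp1 and with Sox9 at 0, summed to 284 to 323 FPKM with PTH and 344 to 354 FPKM with PBS. Whether these marker levels bear on the results was not tested. In bulk RNA, fewer cells of a type and less RNA per cell cannot be told apart.

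**Figure D2:**
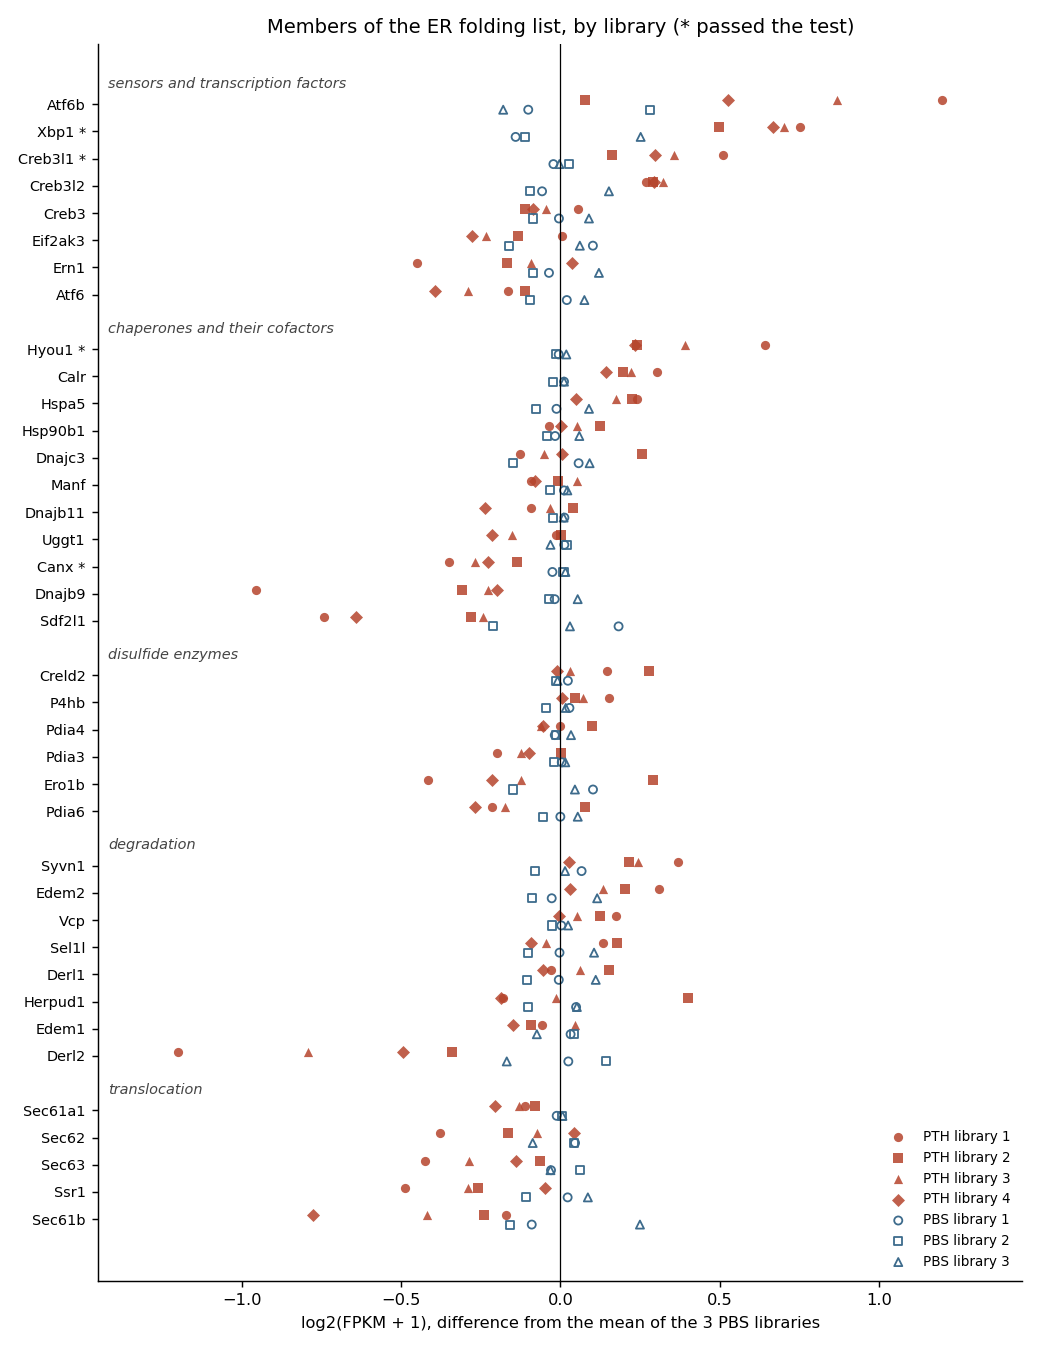
Difference of log2(FPKM + 1) from the mean of the 3 PBS libraries, for each of the 38 tested members by role, with filled symbols for the 4 PTH libraries and open symbols for the 3 PBS libraries. Xbp1, Creb3l1, Hyou1 and Canx, marked with an asterisk, passed the test, and the PTH libraries of Derl2, Dnajb9 and Atf6b spread over the widest ranges.

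Among the sensors and transcription factors, Xbp1 and Creb3l1 rose, and the stress sensors themselves did not pass. Xbp1 (ENSRNOG00000010298) had 48.7, 40.7, 47.0 and 45.9 FPKM in PTH libraries 1 to 4, against 25.8, 26.3 and 34.2 FPKM in PBS libraries 1 to 3. All PTH values lay above all PBS values, with means of 45.6 ± 3.44 and 28.8 ± 4.68 FPKM (SD, n = 4 and 3), a ratio of 1.58. Its log2 fold change was 0.65 ± 0.11 (SE) with a limma adjusted p of 0.0240, and over 16 other settings it stayed between 0.40 and 0.78 and passed in 10. The FPKM of a gene counts both forms of the Xbp1 mRNA, so these values do not say how much of it was cut by IRE1.

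Creb3l1, a membrane-bound factor of the ATF6 type that is known in mice to act on collagen genes in bone, had 82.5, 64.6, 74.0 and 71.0 FPKM with PTH, against 56.7, 58.7 and 57.5 FPKM with PBS. The groups did not overlap, and PTH library 2 was nearest the PBS values. Its log2 fold change was 0.33 ± 0.09 (SE), with a limma adjusted p of 0.0455. After correction for GC content the change was 0.22 with an adjusted p of 0.0537, and when the mitochondrial share was added to the fit it was -0.07 (0.756).

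Its relative Creb3l2, which is known in mice for a part in the secretion of cartilage matrix, had 18.6, 18.9, 19.4 and 19.0 FPKM with PTH, against 14.7, 14.3 and 17.1 FPKM with PBS. Here too the groups stood apart, yet the gene did not pass (log2 fold change 0.29 ± 0.09 (SE), limma adjusted p of 0.0593). Over 16 other settings it passed in 4. Among these were median centring, quantile normalization and GC correction (limma adjusted p of 0.0384, 0.037 and 0.0394). The third relative, Creb3, overlapped between the groups at 65.5 ± 3.44 and 67.7 ± 4.16 FPKM.

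Atf6b, a paralogue of Atf6, had the highest mean of the sensors and factors over the 7 libraries. It had 120, 54.8, 95.5 and 75.2 FPKM with PTH, against 48.3, 63.3 and 45.7 FPKM with PBS. The value of PTH library 2 was within the PBS range, and the gene did not pass (log2 fold change 0.67 ± 0.24 (SE), limma adjusted p of 0.102). Its change was -0.66 when the mitochondrial share was added to the fit. Atf6 itself had 23.5, 24.4, 21.5 and 19.9 FPKM with PTH, against 26.9, 24.7 and 28 FPKM with PBS, all lower but without passing (adjusted p of 0.113 in limma). Its log2 fold change was -0.24 before and -0.01 after GC correction.

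Ern1, the IRE1 sensor and nuclease, averaged 8.59 ± 1.32 FPKM with PTH and 9.73 ± 0.811 FPKM with PBS, and Eif2ak3, the PERK kinase, 8.40 ± 0.826 and 9.51 ± 1.01 FPKM. Both overlapped between the groups. The 95% interval of the log2 fold change was -0.47 to 0.14 for Ern1 and -0.43 to 0.11 for Eif2ak3, so a rise of the size of that of Xbp1 lay outside both. The ratio of Xbp1 to Ern1 within a library, which does not depend on the scaling of the library, was 7.13, 4.78, 5.20 and 4.60 with PTH and 2.73, 2.90 and 3.21 with PBS. The ratio of Xbp1 to Atf6 was 1.67 to 2.30 with PTH and 0.960 to 1.22 with PBS. These pairs were chosen after their values were seen, and no test was made on them.

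**Figure D3:**
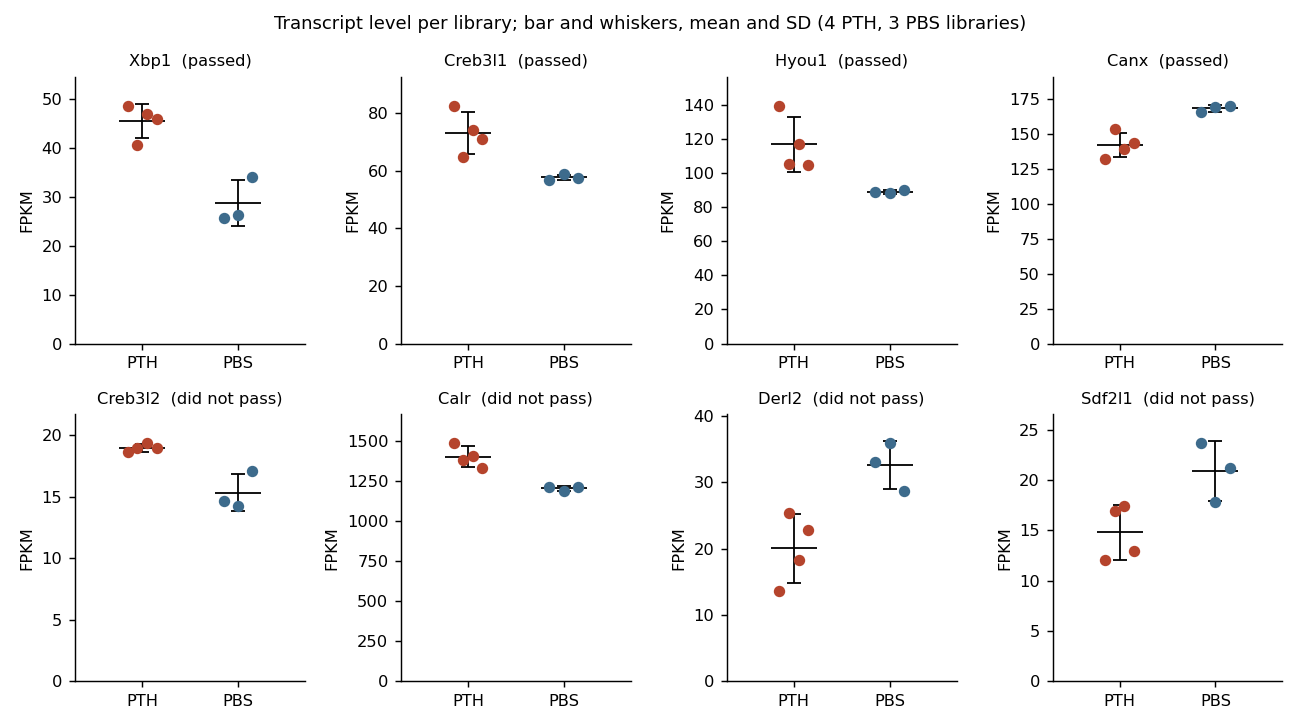
FPKM in each library (points) with the mean and SD (bar and whiskers) for the 4 members that passed the test and the 4 nearest to the threshold, 4 PTH libraries on the left and 3 PBS libraries on the right of each panel, axes from 0. In all 8 genes the groups do not overlap, with Xbp1, Creb3l1, Hyou1, Creb3l2 and Calr higher and Canx, Derl2 and Sdf2l1 lower in the PTH libraries. These genes were chosen by their adjusted p in the same libraries, so their separation is no further result. Over all tested genes 33.4% did not overlap.

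Of the 11 chaperones and cofactors Hyou1 rose, Canx fell and the remaining 9 did not pass (18.2% called, against 11.4% of all genes). After GC correction 5 were higher (Hyou1, Calr, Hspa5, Hsp90b1 and Dnajc3) and 0 lower. Of all genes in that fit 5.78% were higher and 5.49% lower. Hyou1, a large chaperone that also exchanges the nucleotide of BiP, had 139, 105, 117 and 105 FPKM with PTH, against 88.7, 88.2 and 90.2 FPKM with PBS. PTH library 1 was the highest and no values overlapped. The means were 117 ± 16.2 and 89.0 ± 1.02 FPKM, and the log2 fold change was 0.38 ± 0.10 (SE) with a limma adjusted p of 0.0492. When the mitochondrial share was added to the fit the change was -0.15, with a limma adjusted p of 0.497.

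Canx and Calr, the membrane-bound and the soluble lectin chaperone of newly made glycoproteins, lay in opposite directions. Canx (calnexin) had 132, 153, 139 and 143 FPKM with PTH, against 165, 169 and 170 FPKM with PBS, with no overlap. Its log2 fold change was -0.25 ± 0.07 (SE) and its limma adjusted p 0.0486, and it did not pass after median centring, quantile normalization or GC correction (-0.13, adjusted p of 0.118).

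Calr (calreticulin), the most abundant member, had 1485, 1377, 1402 and 1328 FPKM with PTH, against 1212, 1185 and 1212 FPKM with PBS. Its values did not overlap either, but it did not pass (log2 fold change 0.22 ± 0.06 (SE), limma adjusted p of 0.0634). Over 16 other settings it passed in 6. Among these were median centring, quantile normalization and GC correction (limma adjusted p of 0.0365, 0.0345 and 0.0378). The ratio of Calr to Canx within a library was 11.3, 9.0, 10.1 and 9.26 with PTH and 7.34, 7.0 and 7.13 with PBS. It averaged 9.90 ± 1.02 and 7.16 ± 0.172. This pair was also chosen after its values were seen and was not tested.

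Hspa5 (BiP), the central chaperone of the ER and the usual readout of the stress response, had 572, 567, 547 and 501 FPKM with PTH, against 481, 459 and 516 FPKM with PBS. One PTH library lay within the PBS range. The log2 fold change was 0.17 with a 95% interval of 0.00 to 0.34 and a limma adjusted p of 0.139. Hsp90b1 (GRP94), the ER paralogue of HSP90, averaged 575 ± 27.6 and 560 ± 20.7 FPKM, with an interval of -0.11 to 0.18. Both upper bounds lay under the log2 fold change of Xbp1.

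Sdf2l1, a cofactor of BiP that helps keep unfolded chains soluble, had 12.0, 16.9, 17.4 and 13.0 FPKM with PTH, against 23.7, 17.8 and 21.2 FPKM with PBS. Every PTH value was below every PBS value and the gene did not pass (log2 fold change -0.48 ± 0.15 (SE), limma adjusted p of 0.0752). Dnajb9, a J-domain partner of BiP that restrains IRE1, had 3.13, 5.46, 5.85 and 5.97 FPKM with PTH, against 6.91, 6.81 and 7.31 FPKM with PBS. PTH library 1 held the lowest of these values, apart from the others by 0.854 of the range of the PTH group on the log2 scale, and the adjusted p was 0.162 in limma. Both genes are classical targets of the response, as are Hspa5, Hyou1 and Xbp1.

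The other J-domain cofactors overlapped between the groups, Dnajb11 at 72.7 ± 5.85 FPKM with PTH and 76.8 ± 1.03 FPKM with PBS and Dnajc3, which also inhibits PERK, at 53.3 ± 6.48 and 52.3 ± 4.68 FPKM. Manf, a secreted stress protein, averaged 191 ± 9.01 and 195 ± 3.91 FPKM, and Uggt1, which checks the folding of glycoproteins, 44.1 ± 3.29 and 47.1 ± 0.905 FPKM. The summed FPKM of the 11 chaperones was 2999 to 3239 with PTH and 2830 to 2977 with PBS, a sum that Calr leads.

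The disulfide enzymes had log2 fold changes between -0.15 and 0.11. Limma called 0 of 6, with 0 at an unadjusted p under 0.05, and no member separated the groups. Of all tested genes 11.4% were called, 33.9% had an unadjusted limma p under 0.05 and 33.4% did not overlap. With 6 genes these counts say little about the group. P4hb, the main protein disulfide isomerase and a subunit of prolyl hydroxylase, had 886, 823, 838 and 801 FPKM with PTH, against 814, 774 and 807 FPKM with PBS (log2 fold change 0.07, 95% interval -0.08 to 0.21). Pdia3, which works with calnexin and calreticulin, had 360, 414, 380 and 386 FPKM with PTH, against 415, 408 and 418 FPKM with PBS (-0.11, interval -0.25 to 0.04).

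Pdia6, which attenuates IRE1 signalling, had 211, 258, 217 and 203 FPKM with PTH, against 245, 236 and 254 FPKM with PBS. It averaged 222 ± 24.5 FPKM with PTH and 245 ± 9.23 FPKM with PBS, overlapping in PTH library 2. Pdia4 averaged 241 ± 12.7 and 242 ± 4.85 FPKM. Creld2, a stress-induced secreted protein grouped here with these enzymes, averaged 91.0 ± 8.39 and 84.0 ± 1.20 FPKM. Ero1b, one of the oxidases that recharge the isomerases, was low at 4.58 ± 1.20 and 4.97 ± 0.529 FPKM. Its interval, -0.53 to 0.30, was the widest of the group.

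Limma called 11.4% of all tested genes, and 33.9% had an unadjusted p under 0.05. In the degradation group limma called 0 of 8 tested genes, with 1 at an unadjusted p under 0.05. That gene was Derl2, a membrane protein of the channel that returns misfolded proteins to the cytosol, with 13.6, 25.4, 18.3 and 22.8 FPKM with PTH, against 33.0, 36.0 and 28.8 FPKM with PBS. Every PTH library was lower, and the log2 fold change of -0.71 ± 0.19 (SE) just missed the threshold (limma adjusted p of 0.0520). Among the fits without 1 library it passed without PTH library 1 or PTH library 2, and it ranged from -0.83 to 0.35 over 16 settings, the positive value when the mitochondrial share was added to the fit. For Derl2 the authors' deposited table holds -0.70 on the log2 scale, at an FDR of 6.51e-04.

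Its paralogue Derl1 did not share that pattern, at 60.1 ± 4.08 FPKM with PTH and 58.8 ± 4.49 FPKM with PBS. Syvn1 (HRD1), the ubiquitin ligase of this pathway, had 16.2, 14.5, 14.7 and 12.6 FPKM with PTH, against 12.9, 11.6 and 12.4 FPKM with PBS, overlapping in 1 PTH library (log2 fold change 0.21, limma adjusted p of 0.180). Sel1l, its partner, averaged 38.5 ± 3.62 and 37.3 ± 2.76 FPKM. Vcp, the ATPase that pulls substrates out of the membrane, had 289, 279, 265 and 255 FPKM with PTH, against 256, 251 and 260 FPKM with PBS.

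Herpud1, a strongly stress-induced scaffold of the ligase complex, had 50.1, 75.5, 56.4 and 49.97 FPKM with PTH, against 59.0, 53.1 and 59.1 FPKM with PBS. PTH library 2 alone lay above the PBS range, and the log2 fold change was 0.00 with an interval of -0.32 to 0.33. The mannosidase-like proteins that mark glycoproteins for removal also overlapped, Edem1 at 35.6 ± 2.11 and 37.2 ± 1.68 FPKM and Edem2 at 37.7 ± 3.16 and 33.4 ± 2.52 FPKM.

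The translocation genes all had a log2 fold change below 0 in the fit without GC correction, and none passed. Over all tested genes 55.4% were below 0. Limma called 0 of 5, against 11.4% of all genes. At an unadjusted p under 0.05, 4 were lower, where 21.7% of all genes were. The median log2 fold change was -0.23, against -0.04 for all tested genes. Sec61b, a small subunit of the channel, had 125, 119, 105 and 81.7 FPKM with PTH, against 132, 126 and 168 FPKM with PBS, without overlap (log2 fold change -0.40 ± 0.16 (SE), limma adjusted p of 0.119). Sec61a1, the pore-forming subunit, had 154, 157, 152 and 144 FPKM with PTH, against 165, 167 and 167 FPKM with PBS, a small difference with no overlap (-0.13, adjusted p of 0.141). Ssr1, a subunit of the translocon-associated complex, had 103, 120, 118 and 139 FPKM with PTH, against 146, 134 and 153 FPKM with PBS, where PTH library 4 reached into the PBS range (-0.27, adjusted p of 0.112).

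Sec63, the membrane J-protein that brings BiP to the channel, averaged 36.1 ± 4.08 FPKM with PTH and 42.3 ± 1.60 FPKM with PBS, and its partner Sec62 40.5 ± 5.0 and 44.6 ± 2.34 FPKM. Together the 5 genes took 0.0896 to 0.0951% of the summed FPKM with PTH and 0.0993 to 0.107% with PBS. The chaperones took 0.631 to 0.651% with PTH and 0.544 to 0.559% with PBS. All members together took 1.26 to 1.28% and 1.13 to 1.16%. These shares were not tested, and the mitochondrial mRNAs, which are in the same denominator, took less of the PTH libraries.

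GC content moved with these differences. Across the 38 members the log2 fold change and the GC content of transcripts of the human counterpart had a Spearman correlation of 0.46, as it was across all 9437 genes with a value, and after correction it was -0.08 for the members. The points share the same 7 libraries, so this is a description. The translocation genes had the lowest median GC content of the roles, 42.3%, against 48.1% over all members. After the correction their median log2 fold change was -0.06 (0.01 for all genes), with Sec62 at 0.13 and Sec63 at 0.04. In that fit 0 members were lower, and 7 members rose: Xbp1, Hyou1, Creb3l2, Calr, Hspa5, Hsp90b1 and Dnajc3. Of the 9437 genes 5.78% were higher and 5.49% lower in that fit. Without the correction, limma on the same 9437 genes called 401 higher and 924 lower, with 3 members higher and 2 lower, Derl2 being the added one. Hspa5 then had a log2 fold change of 0.30 (adjusted p of 0.0300 in limma) and Hsp90b1 0.22 (0.0320), while Sdf2l1, the member with the highest GC content (65.5%), had -0.66 (0.0518).

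**Figure D4:**
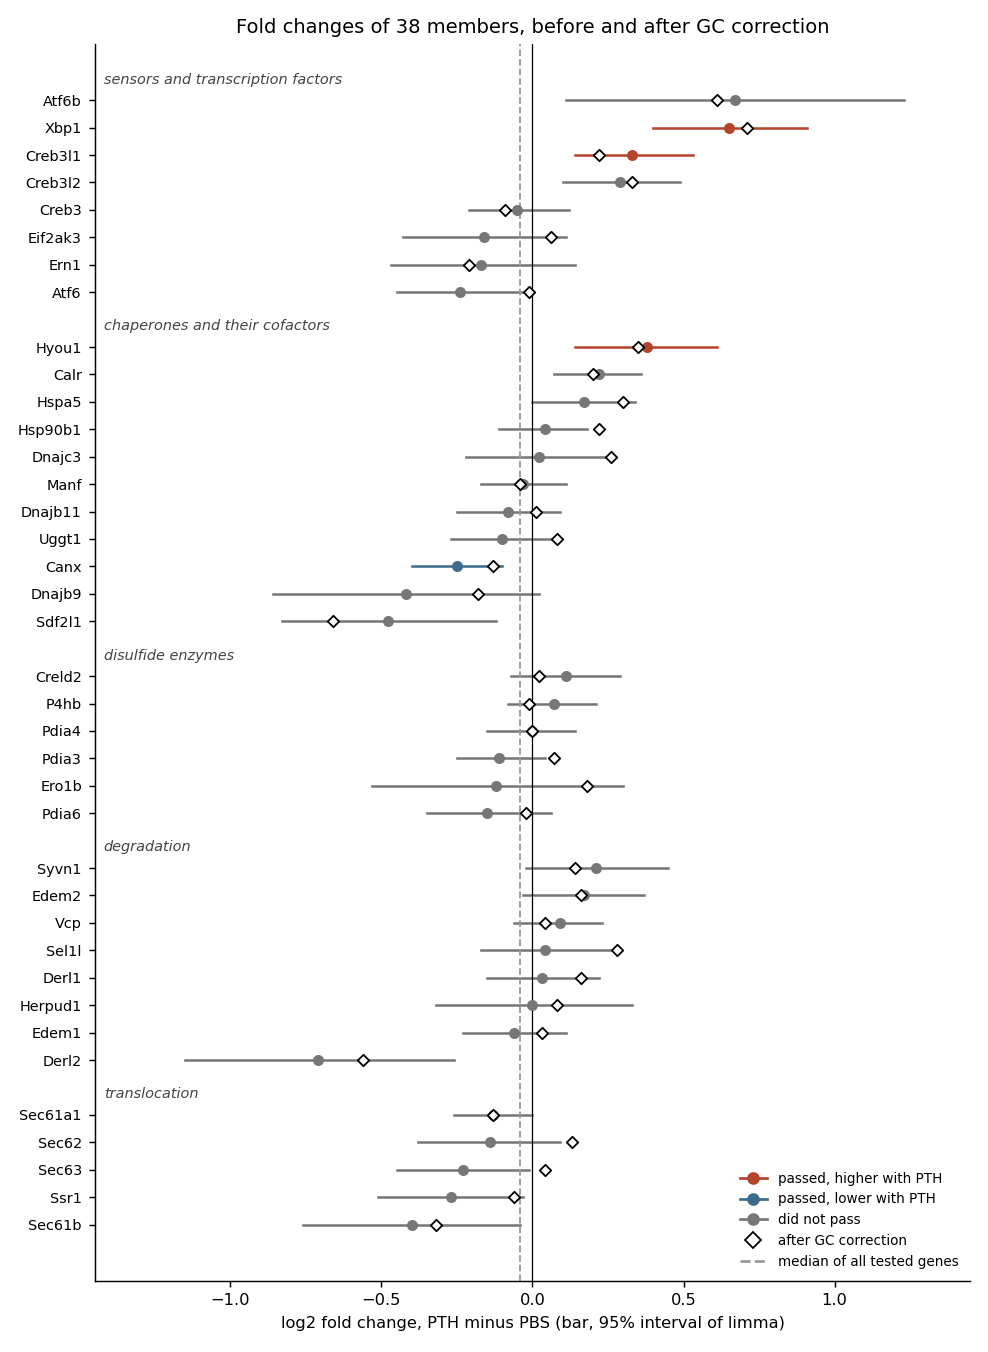
Log2 fold change of PTH minus PBS with its 95% interval (circle and bar) for the 38 tested members by role, and the value after GC correction (diamond), with a dashed line at the median of all tested genes, -0.04. Members of low GC content such as Hsp90b1, Dnajc3, Sel1l, Sec62 and Sec63 sit farther right after the correction, and Xbp1 and Hyou1 keep values of 0.71 and 0.35.

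The wider ER lists, written by function, held 196 symbols, of which 180 were in the tables and 172 were tested. Of these 8 rose and 18 fell (15.1%, against 11.4% of all genes), with a median of -0.05. In the list of the PERK branch and ER stress outcomes 2 of 22 rose and 1 fell (13.6%, against 11.4% of all genes). That list also holds genes outside the PERK branch, among them the ATF6 proteases Mbtps1 and Mbtps2. Atf4, Ddit3 and Trib3 did not pass. Atf4, the main transcription factor of the PERK branch, averaged 399 ± 23.3 FPKM with PTH and 431 ± 15.9 FPKM with PBS. Ddit3 (CHOP), a pro-apoptotic target of that branch, averaged 87.1 ± 9.33 and 77.8 ± 9.97 FPKM. Trib3, a further target, averaged 18.1 ± 2.52 and 16.2 ± 1.22 FPKM. The genes that rose were Crebzf, a factor of the bZIP family, at 38 ± 6.73 and 20.3 ± 5.34 FPKM, and Sesn2, a stress-induced inhibitor of growth signalling, at 21.9 ± 1.72 and 16.8 ± 0.437 FPKM. Txnip, which binds thioredoxin, fell by 0.34 in log2 units (limma adjusted p of 0.0409). It did not pass after median centring (0.0838), quantile normalization (0.0771) or GC correction (-0.18, 0.19), and Sesn2 did not pass after GC correction (0.27, 0.103).

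Mbtps1 and Mbtps2, the proteases that release ATF6, differed in direction without passing, at log2 fold changes of 0.21 (limma adjusted p of 0.107) and -0.61 (0.0806). Among 34 other chaperones and lectins Prkcsh, a subunit of glucosidase II, rose by 0.39 in log2 units (limma adjusted p of 0.0452), and Sep15, a redox partner of Uggt1, fell by 0.43 (0.0342). These were the only calls of that list (5.88%, against 11.4% of all genes). Among 18 other disulfide and redox enzymes 2 rose and 4 fell (33.3%, against 11.4% of all genes). Ero1a, the main oxidase of the isomerases, fell to 40.1 ± 1.90 FPKM with PTH, against 57.9 ± 5.59 FPKM with PBS (log2 fold change -0.52 ± 0.08 (SE), limma adjusted p of 0.0187), where its paralogue Ero1b did not pass. Erp44, which retains Ero1 oxidases in the ER, fell by 0.66 (limma adjusted p of 0.0284) and Txndc12 by 0.30 (0.0356) in log2 units, and Tmx3 fell too while Pdia5 and Sumf1 rose.

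Of 36 other degradation genes 2 rose, Os9 and Ddrgk1, and 2 fell, Ube2j2 and Rnf139. That is 11.1% of the list, close to the 11.4% of all genes. Ddrgk1, part of an ER ligase for the modifier UFM1, rose by 0.57 in log2 units (limma adjusted p of 0.0405). Ube2j2, a ubiquitin-conjugating enzyme of the ER membrane, fell by 0.32 (0.0364) and Rnf139, a membrane ubiquitin ligase, by 0.73 (0.0412). Vimp, listed in the tables with the synonym Sels, an older name of Selenos, did not pass at 60.9 ± 4.15 FPKM with PTH and 55 ± 3.87 FPKM with PBS.

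Among the other translocon, signal peptidase and oligosaccharyltransferase genes 8 of 29 fell and 1 rose, where 7.96% of all genes fell and 3.45% rose. Of the 29, 27 (93.1%) had a log2 fold change below 0, against 55.4% of all genes. Their median was -0.31, against -0.04 for all tested genes, and -0.12 after GC correction, in which 3 of the 28 with a GC value fell. Spcs1 and Sec11a, subunits of the signal peptidase, fell to 36.1 ± 4.80 and 42.1 ± 6.71 FPKM with PTH, against 57.1 ± 5.13 and 63.3 ± 3.43 FPKM with PBS. Srp9, of the signal recognition particle, fell to 31.6 ± 1.43 FPKM with PTH, against 41.2 ± 2.10 FPKM with PBS. Limma adjusted p was 0.0244 for Spcs1, 0.0291 for Sec11a and 0.0279 for Srp9, which did not pass after GC correction (-0.14, 0.234). Sec61g, Ssr3, Srp54a, Tram1 and Ost4 fell as well, and Srp68 rose. In each PTH library the median difference from the PBS mean was below 0, at -0.44, -0.12, -0.29 and -0.30 in libraries 1 to 4. Of 33 genes of ER exit and retrieval 2 fell, Sar1b and Tfg, both of the COPII coat pathway, by 0.60 and 0.66 in log2 units (limma adjusted p of 0.0338 and 0.0356). That is 6.06% of the list, where 7.96% of all genes fell. Of the 26 calls in the wider lists 24 were kept without PTH library 1, 26 without PTH library 2, 4 without PTH library 4, 1 without PBS library 3 and none without PTH library 3, PBS library 1 or PBS library 2.

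**Figure D5:**
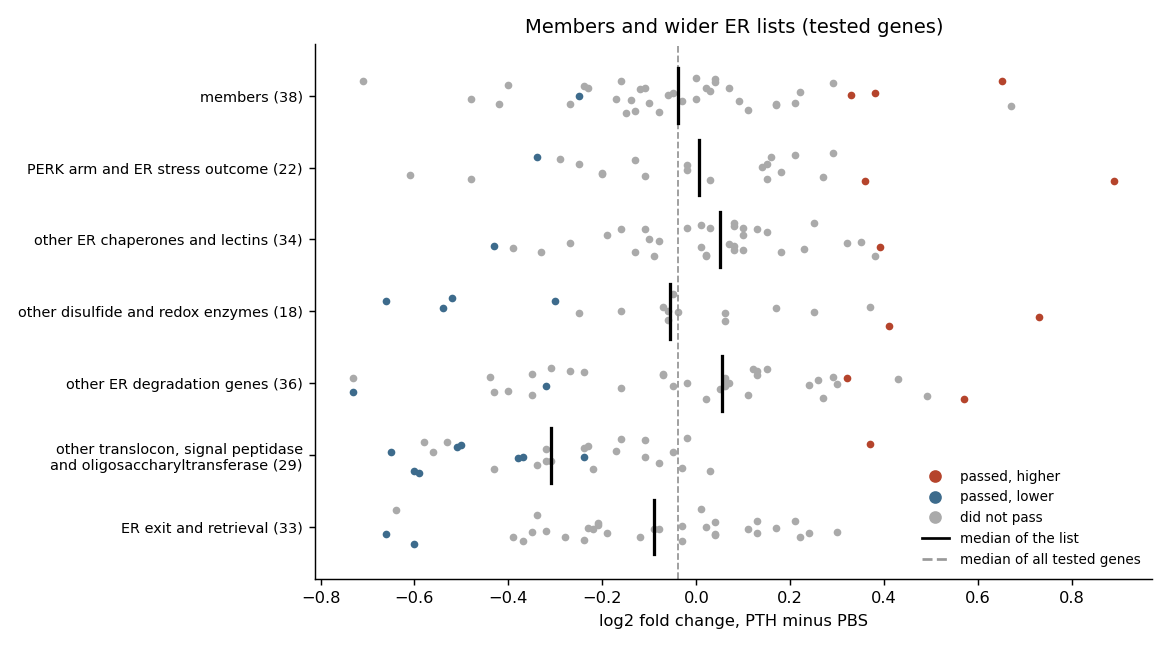
Log2 fold change of PTH minus PBS for the tested members and the tested genes of the 6 wider ER lists (points, with colour for genes that passed), the median of each list (black bar) and the median of all tested genes (dashed line, -0.04). The translocon, signal peptidase and oligosaccharyltransferase list has its median at -0.31, with 8 of 29 genes passing as lower, and the other medians lie between -0.09 and 0.05.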

How the data were processed

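The authors deposited FPKM values per gene and library as the tables' own columns state, split over a table of higher genes and another of lower ones. The submitters' processing notes name Bowtie 0.12.2 and mm8. No source used here gives the program or annotation behind the FPKM values, and read depth is unknown. The authors' deposited log2 fold change was read on the log2 scale, in the table of higher genes as a score because 1 value lies outside the usual range. Their deposited p-value and FDR were used as given, for comparison.

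Both tables were joined (22062 rows) and the row with the highest mean was kept per symbol. Genes averaging 1 FPKM or more were tested on log2(FPKM + 1), which understates changes of low genes, with limma 3.58.1 in R 4.3.3 (variance trend, two-sided, Benjamini-Hochberg over 10662 genes). The fit was tested on simulated data with independent noise in each gene and library. Differences shared by many genes of a library were not simulated, so that check says nothing about them. GC content is the median over GENCODE 29 transcripts of the human gene of the same symbol (88.5% of genes). A loess trend on it was removed per library in the GC correction. Motifs were searched in RefSeq promoter windows of GRCh38.p14.

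Members and lists were chosen with earlier results of these data known. Values per library are given for members that passed, the 2 smallest p and the highest mean of each role, and the 4 members nearest the threshold. From each wider list up to 3 called genes with the smallest p were named. Atf6, Hspa5, Dnajb9, Herpud1, Atf4, Ddit3, Trib3, Mbtps1, Mbtps2, Vimp and the other genes named only by direction lie outside this rule and were picked with their values in view.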

Additional observations from a re-analysis of the deposited data

Results flagged for a closer look

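Dnajb9 was the 1 member of 38 in which a PTH library stood far from the other 3. In PTH library 1 it had 3.13 FPKM, against 5.46 to 5.97 FPKM in the other PTH libraries, and the gap to the nearest took up 0.854 of the range on the scale of log2(FPKM + 1), above the 95% critical value of Dixon's test. On the FPKM scale it took up 0.82, which is below that value. Chance alone flags about 1 in 20 groups.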

How the results depend on the processing

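Without a filter on low values 212 genes were higher and 553 lower, with 1 and 0 members and 2 higher genes of the wider lists. Among genes averaging 5 FPKM or more 2 members were lower. Median centring gave 593 higher and 554 lower genes (51.7% higher, against 30.2%), 5 and 0 members and 13 higher genes of the wider lists. Quantile normalization gave 664 higher genes (53.7% of the calls higher) and 6 and 0 members. GC correction, fitted on the 9437 genes with a GC value, gave 518 lower genes, 7 and 0 members and 11 lower genes of the wider lists, against 924 lower genes, 3 and 2 members and 21 lower genes of the wider lists on the same genes without it. Sample quality weights gave 1958 higher and 3245 lower genes, 7 and 12 members and 31 and 64 genes of the wider lists. With the mitochondrial share as a covariate limma called 0 higher genes and 1 lower gene, and 0 members and 0 genes of the wider lists either way, with 1600 genes and 1 member at an unadjusted p under 0.05. The cause of these changes was not tested.

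With the replicate number as a block 3 genes were higher and 17 lower, and 0 members and 0 genes of the wider lists passed either way, while 3074 genes and 12 members had an unadjusted limma p under 0.05. The sample titles do not say whether equal numbers pair the samples. The deviations of same-numbered libraries from their group means correlated at -0.00714, 0.00116 and -0.0368, and no PTH library correlated best with its own number. So few values cannot exclude a pairing.

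Leaving out 1 library at a time gave 3 to 828 higher and 25 to 1924 lower genes, 0 to 5 higher and 0 to 4 lower members, and 0 to 13 higher and 0 to 48 lower genes of the wider lists. The fewest calls came without PBS library 1 and the most without PTH library 2.

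When the mitochondrial share was added to the fit, the sign turned in 18 of 38 members. Among the genes covered by the naming rule it turned for Atf6b (-0.66), Creb3l1 (-0.07), Hyou1 (-0.15), P4hb (-0.09), Syvn1 (-0.06), Vcp (-0.03), Ddrgk1 (-0.16) and Prkcsh (-0.12), and for Derl2 (0.35), Pdia3 (0.12), Pdia6 (0.10), Ssr1 (0.13), Rnf139 (0.22) and Tfg (0.09). After GC correction it turned in 9 of 38 members, among them P4hb (-0.01) and Pdia3 (0.07). Median centring turned 4 members and quantile normalization 3, of which none had passed. The mitochondrial shares of the groups do not overlap, so that covariate and PTH cannot be told apart. With no read counts, what depth limits is unknown. With 4 and 3 libraries, the interval of Herpud1 spans -0.32 to 0.33 and that of Ero1b -0.53 to 0.30.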

Other observations

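The PTH libraries differed among themselves. The counts below were made over the members only, so they do not set the ER genes apart from other genes. PTH library 2 held the highest of the 4 PTH values in 17 of the 38 tested members, and PTH library 4 the lowest in 19. PTH library 2 also had the highest summed FPKM of the PTH libraries (509859) and PTH library 4 the lowest (472621). Over all tested genes the median difference of PTH library 4 from the PBS mean was -0.10 on the log2 scale. PTH library 1 held the highest value in 13 members and the lowest in 14. In PTH library 1, 7 members lay more than 0.5 from the PBS mean on the log2 scale, against 0 in PTH library 2, 3 in PTH library 3 and 4 in PTH library 4.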
